A study of Mus musculus with 9 samples.

Results

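The 9 genes described here encode core parts of the PI3K, Akt and mTOR signalling route: Pik3cd, Pik3r1, Pik3ip1, Inpp5d, Akt1, Akt2, Mtor, Rptor and Rictor. They were chosen by name, by matching each symbol to an Ensembl gene ID of the count table, and all 9 were found among its 39017 genes. All 9 also passed the filter on low counts that left 14693 genes for testing. RNA was sequenced from helper T lymphocytes (CD4+ T cells) of the lymph nodes of male mice on the C57BL/6 background. The 5 WT samples (replicates 1, 3, 4, 5 and 9) carried a floxed Kdm6a allele over the Y chromosome and no Cre. The 4 cKO samples (replicates 2, 6, 7 and 8) carried the same floxed allele and 1 copy of CD4-Cre, which is driven by the Cd4 promoter and so acts in every cell that has passed through a Cd4-expressing stage. Kdm6a encodes a demethylase of lysine 27 of histone H3, and the series asked which genes depend on it in these cells. Ages were not stated, and Cre was present in no WT sample, so Cre and the loss of Kdm6a cannot be told apart. The labels state no stimulation, although the title of the deposited table includes the word stim. No label says whether the samples were separate mice. The p-values therefore rest on the spread between samples as they are, part of which may be technical.

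In T cells, engagement of the antigen receptor, CD28 or cytokine receptors recruits PI3K to the membrane, where it makes the lipid PIP3. PIP3 draws Akt to the membrane, Akt restrains FOXO transcription factors and relieves the TSC brake on mTOR complex 1, and mTOR complex 2 phosphorylates Akt in turn. The route is known for controlling T cell growth, metabolism and traffic, and lipid phosphatases such as SHIP1 oppose it.

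Total counts ran from 20587482 to 26387488 per sample. Kdm6a, in CPM (the usual unit of counts scaled to library size, here after TMM normalization), averaged 62.7 ± 1.59 in the 5 WT samples and 42.7 ± 1.48 in the 4 cKO samples (SD), a log2 difference of -0.55 (edgeR adjusted p = 2.89e-05). Whole-gene counts can keep reads from exons outside the deleted part. The source of the Kdm6a reads left in cKO was not tested. Of 7 T cell identity genes, all were tested, and 2 were higher in cKO, beside 7.0% of all genes tested: Cd4 by 9.6% and Cd5 by 17.0%. Another 2 were lower, beside 8.82%: Cd3d by 12.1% and Cd3g by 14.6%. The summed level of the 7 was 2537 to 2767 CPM in WT and 2490 to 2730 CPM in cKO. The 8 B cell markers summed to 240.6 to 352.7 CPM in WT and 255.2 to 291.7 CPM in cKO, most of it from Ighm, at 301 and 268 CPM, and of the 7 tested only Cd79b passed, falling from 1.72 to 0.911 CPM without overlap (log2 -0.91, edgeR adjusted p = 0.0104). The 2 CD8 T cell markers summed to 11.9 to 15.1 CPM in WT and 15.1 to 19.1 CPM in cKO, where Cd8b1 rose (log2 0.28, edgeR adjusted p = 0.0296). The sums were 14.9 to 19.5 and 17.6 to 21.4 CPM for the 7 macrophage and monocyte markers, most of it from Csf1r, and all 5 neutrophil markers were at 0. Mitochondrial genes took 2.38% of the counts in WT (SD 0.0573, n = 5) against 2.59% in cKO (SD 0.138, n = 4) (two-sided exact permutation p = 0.0159, adjusted over 2 measures p = 0.0318), and the part of this share and of the markers in the results below was not tested. In RNA from a population of cells, fewer cells that express a gene and less RNA per cell cannot be told apart.

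Akt2 and Inpp5d were lower in cKO, Rictor was higher, and the other 6 genes did not pass the test. The changes were small, from 17.0% lower for Inpp5d to 10.2% higher for Rictor. With edgeR's quasi-likelihood test and Benjamini-Hochberg adjustment over all genes tested, 1 of the 9 rose, beside 7.0% of all genes, and 2 of the 9 fell, beside 8.82%. In the same 3 genes all cKO samples lay to 1 side of all WT samples: above them in 1 gene, beside 7.08% of all genes tested, and below them in 2, beside 8.78%, with 15.9% for both sides together. The median log2 fold change of the 9 was -0.03, beside 0.00125 for all genes. Both directions together, 33.3% of the 9 genes were called, beside 15.8% of all genes tested. Whether the 9 differ from the rest of the genes was not tested, and counts over so few genes show neither a difference nor its absence. The lowest count of any of the 9 in any sample was 499 reads, for Pik3ip1 in cKO 6, and the highest was 17669, for Pik3cd in WT 9. The part of counting error in the spread between samples was not tested.

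**Figure D1:**
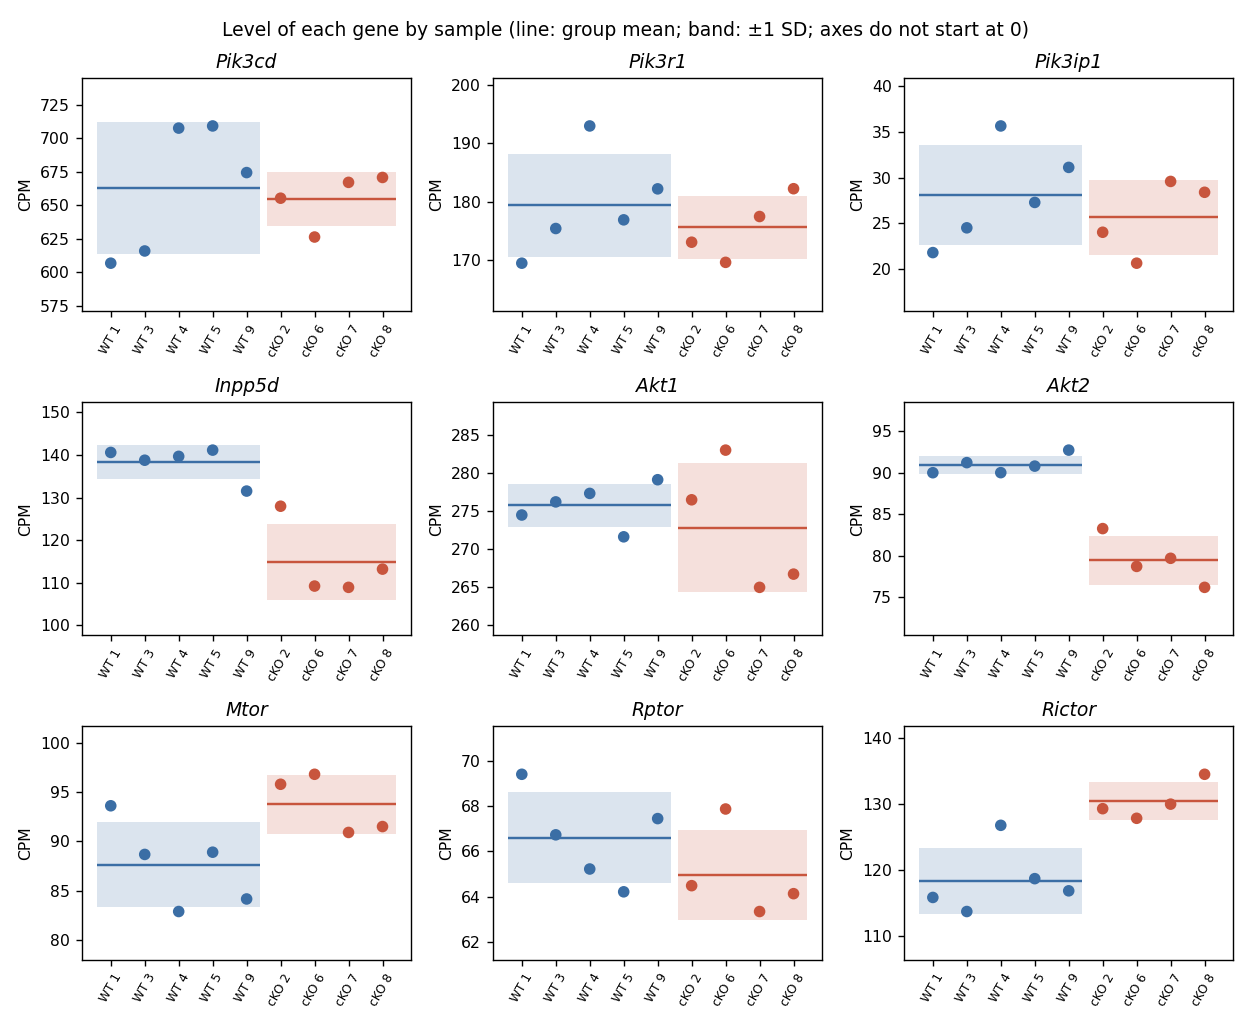
Level of each of the 9 genes in CPM (y axes, which do not start at 0) in each sample (x axis), with the WT samples in blue and the cKO samples in red, group means as lines and 1 SD as bands. The genotypes do not overlap for Inpp5d, Akt2 and Rictor, and do for the other 6 genes.

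The levels of the 9 genes can be compared with each other only per length, and for this each CPM was divided by the gene's exonic length in kilobases (RPKM), counting every annotated exon whether or not these cells use it. Pik3cd was the most abundant in both genotypes, at 105.9 RPKM in WT and 104.6 RPKM in cKO, and Akt1 followed at 67.3 and 66.6 RPKM. In WT the order went on with Inpp5d at 18.2, Pik3r1 at 17.8, Akt2 at 12.8, Mtor at 8.67, Rictor at 6.99, Pik3ip1 at 6.57 and Rptor at 4.94 RPKM. Among neighbours in that order, the WT samples overlapped between Inpp5d and Pik3r1, between Rictor and Pik3ip1 and between Pik3ip1 and Rptor. In cKO the order was the same except that Pik3r1, at 17.4 RPKM, stood above Inpp5d, at 15.1 RPKM. Inpp5d exceeded Pik3r1 in 3 of 5 WT samples and in 0 of 4 cKO samples. The cKO samples overlapped between Pik3r1 and Inpp5d, since Inpp5d in the highest cKO sample equalled Pik3r1 in the lowest at 16.8 RPKM, and between Pik3ip1 and Rptor.

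The kinase that makes PIP3 was represented by its catalytic and regulatory subunits and by an inhibitor, and none of the 3 passed the test. Pik3cd, which encodes p110 delta, the catalytic subunit enriched in leukocytes, lies on the minus strand of chromosome 4 from 149649168 to 149702571 of mm10. Its level was 606.9, 616.0, 707.7, 709.3 and 674.5 CPM in WT 1, 3, 4, 5 and 9, and 655.4, 626.4, 667.2 and 670.9 CPM in cKO 2, 6, 7 and 8. All 4 cKO samples lay inside the range of the WT samples, of which WT 1 and WT 3 were the lowest. The log2 fold change was -0.02 (95% interval -0.13 to 0.10, edgeR adjusted p = 0.856), and it took the opposite sign, at 0.0071, 0.0079 and 0.0040, without WT 4, WT 5 or cKO 6.

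Pik3r1 encodes the regulatory subunit p85 alpha, which stabilises p110 and docks it to phosphorylated receptors, and lies on the minus strand of chromosome 13 from 101680563 to 101768217. WT samples held 169.5, 175.4, 192.9, 176.9 and 182.2 CPM of Pik3r1 and cKO samples 173.0, 169.6, 177.4 and 182.2 CPM. The ranges overlapped almost fully, and only WT 4 lay above all cKO samples, and the log2 fold change was -0.03 (95% interval -0.12 to 0.06, edgeR adjusted p = 0.658). Per length, Pik3cd was at 5.95 times Pik3r1 in WT (SD 0.308, n = 5) and 6.01 times in cKO (SD 0.0823, n = 4).

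Pik3ip1 encodes a transmembrane protein that binds p110 and restrains PI3K in T cells, and lies on the plus strand of chromosome 11 from 3330401 to 3342971. It was the most variable of the 9 between samples of 1 group, with a coefficient of variation of 19.4% in WT and 16.0% in cKO, against 1.04% to 7.40% in WT for the other 8. Its level was 21.8, 24.5, 35.6, 27.3 and 31.1 CPM in the WT samples and 24.0, 20.7, 29.6 and 28.4 CPM in the cKO samples. The lowest value was in cKO 6 and the highest in WT 4. Its log2 fold change was -0.13 (95% interval -0.44 to 0.18, edgeR adjusted p = 0.574), was -0.21 without WT 1 and -0.03 without WT 4. On the opposite strand, Gm12592 shares 91 exonic bases with Pik3ip1, and its means of 14.9 CPM (WT) and 14.2 CPM (cKO) did not differ by the test (edgeR adjusted p = 0.444). The strand setting of the authors' counting is not given in the sources used here, so reads from the shared bases cannot be assigned to either gene.

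Inpp5d, the gene of SHIP1, fell in cKO. SHIP1 is a lipid phosphatase of blood cells that removes a phosphate from PIP3. The gene lies on the plus strand of chromosome 1 from 87620312 to 87720507. WT samples 1, 3, 4, 5 and 9 held 140.6, 138.8, 139.7, 141.1 and 131.5 CPM, and cKO samples 2, 6, 7 and 8 held 128.0, 109.2, 108.9 and 113.2 CPM. Every cKO sample was below every WT sample, with WT 9 and cKO 2 nearest to each other. The log2 fold change was -0.27 (SE 0.05, 95% interval -0.38 to -0.16, edgeR adjusted p = 0.00578), or 17.0% lower. The call held in each of the 16 other settings tried, with adjusted p from 6.9e-05 to 0.0222 and log2 fold changes from -0.32, without cKO 2, to -0.24, without cKO 7.

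Of the kinases Akt1 and Akt2, close paralogs that share most of their substrates, Akt2 fell and Akt1 did not pass the test, and the difference between their changes was not tested. Akt1 lies on the minus strand of chromosome 12 from 112653821 to 112674884, and Akt2 on the plus strand of chromosome 7 from 27591552 to 27640826. Akt2 was at 90.00, 91.2, 90.01, 90.8 and 92.7 CPM in WT and at 83.3, 78.7, 79.7 and 76.2 CPM in cKO. The WT samples lay within a narrow band, with a coefficient of variation of 1.24%, and all 4 cKO samples lay below it. Akt2 fell by 0.20 on the log2 scale (SE 0.03, edgeR adjusted p = 0.00456), or 12.6%, and the call held in all 16 other settings, with adjusted p from 7.23e-05 to 0.0178.

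Akt1 was at 274.5, 276.2, 277.3, 271.6 and 279.1 CPM in WT and at 276.5, 283.0, 264.9 and 266.7 CPM in cKO. The cKO samples stood on both sides of the WT samples, and the log2 fold change was -0.02 (95% interval -0.08 to 0.05, edgeR adjusted p = 0.776). It was 0.0029 with upper-quartile scaling. As a share of the summed RPKM of Akt1 and Akt2, Akt2 took 15.9% in WT (SD 0.154, n = 5) against 14.3% in cKO (SD 0.483, n = 4). The shares ran from 15.7% to 16.1% in WT and from 13.8% to 14.8% in cKO, without overlap, and are given with no test.

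**Figure D2:**
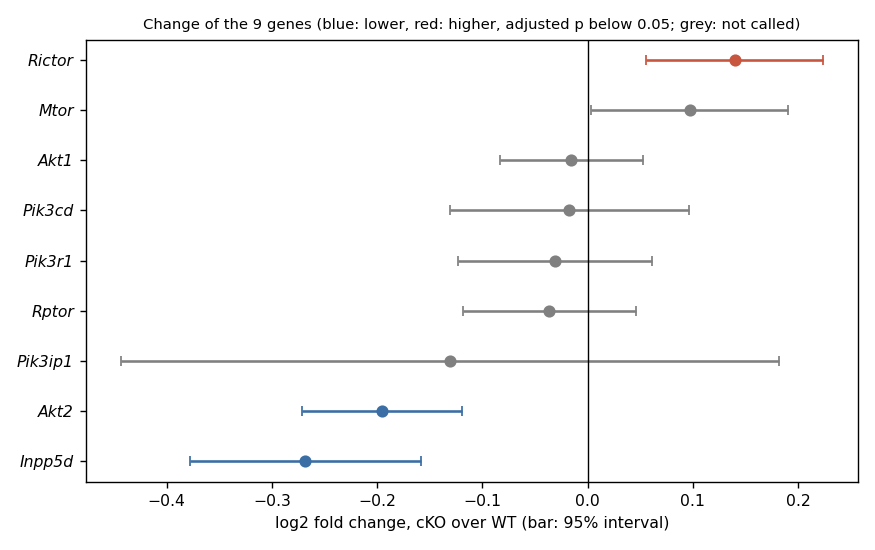
Log2 fold change of cKO over WT for each of the 9 genes (x axis), with 95% intervals as bars. The intervals of Inpp5d, Akt2 and Rictor lie away from 0 and these genes passed adjusted p 0.05, while the interval of Mtor begins at 0.0035 and Mtor did not pass.

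Mtor, the kinase shared by both mTOR complexes, lies on the plus strand of chromosome 4 from 148448611 to 148557683. It was at 93.6, 88.7, 82.9, 88.9 and 84.2 CPM in WT and at 95.8, 96.8, 90.9 and 91.5 CPM in cKO. Only WT 1 reached into the range of the cKO samples. The log2 fold change was 0.10 (SE 0.04, unadjusted p = 0.0433, edgeR adjusted p = 0.146), and it was 0.12 without WT 1 (adjusted p = 0.0534), the smallest adjusted p over its 16 other settings.

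Rptor encodes Raptor, the scaffold that defines mTOR complex 1 and brings it its substrates, and lies on the plus strand of chromosome 11 from 119602905 to 119899576. Its level was 69.4, 66.7, 65.2, 64.2 and 67.5 CPM in WT and 64.5, 67.9, 63.3 and 64.1 CPM in cKO. The groups overlapped, and the log2 fold change was -0.04 (95% interval -0.12 to 0.05, edgeR adjusted p = 0.547). Rptoros, which shares 84 exonic bases with it on the opposite strand, was at 0.653 and 0.471 CPM.

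Rictor encodes the scaffold that defines mTOR complex 2, and was the 1 gene of the 9 that rose. It lies on the plus strand of chromosome 15 from 6708379 to 6800401. WT samples held 115.9, 113.7, 126.8, 118.7 and 116.9 CPM and cKO samples 129.3, 127.9, 130.0 and 134.5 CPM. Every cKO sample was above every WT sample, and WT 4 was nearest to them. The log2 fold change was 0.14 (SE 0.04, edgeR adjusted p = 0.0306), or 10.2% higher, and its direction was the same in all 16 other settings. The call did not hold in 7 of them: without WT 3 (adjusted p = 0.0670), WT 5 (0.0537), WT 9 (0.0627), cKO 6 (0.0563), cKO 7 (0.0605) or cKO 8 (0.0887), and with no count filter (0.0596). The number of the 9 genes that rose was then 0. Per length, Rictor was at 1.42 times Rptor in WT (SD 0.0907, n = 5) and 1.60 times in cKO (SD 0.0734, n = 4). These ratios, given with no test, ran from 1.33 to 1.55 in WT and from 1.5 to 1.67 in cKO, where WT 4 stood above cKO 6.

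**Figure D3:**
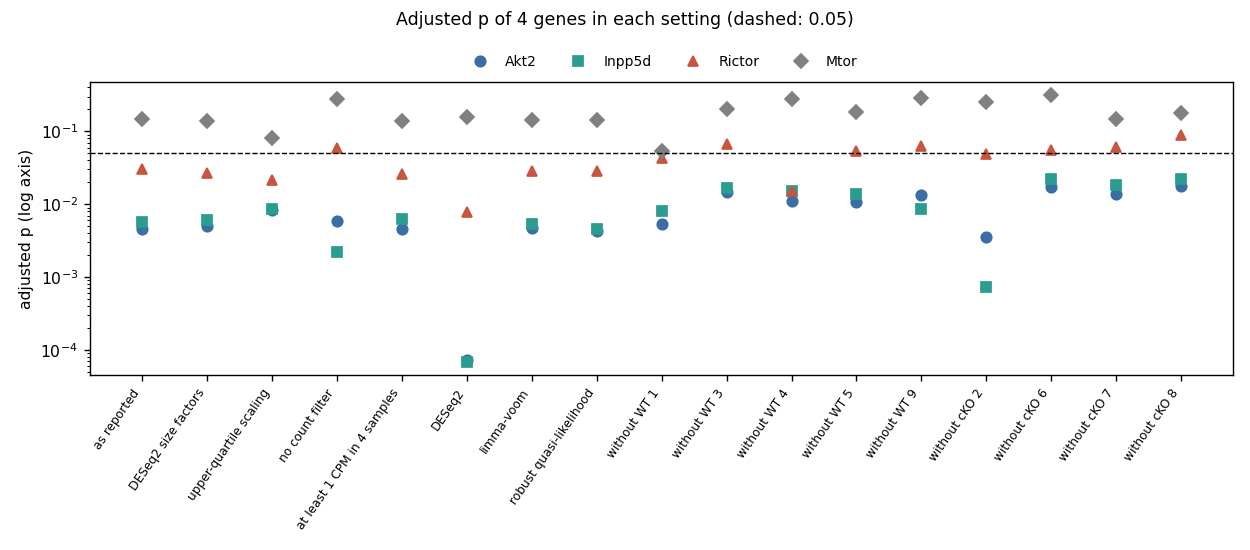
Adjusted p on a log axis (y) of Akt2, Inpp5d, Rictor and Mtor in the fit as reported and in each of 16 other settings (x), with 0.05 as a dashed line. Akt2 and Inpp5d stay below the line throughout, with adjusted p up to 0.0178 and 0.0222, Rictor crosses it in 7 settings, and Mtor stays above it.

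The sequences upstream of the start sites of the 3 genes that passed the test are shown because 2 of them fell together and the third rose. Each is the 250 bases before the start given by RefSeq for GRCm38.p6, the assembly of mm10, read 5′ to 3′ on the gene's strand, which is the plus strand for all 3. Capitals mark matches to the motifs searched.
Akt2 (chr7:27591302-27591551): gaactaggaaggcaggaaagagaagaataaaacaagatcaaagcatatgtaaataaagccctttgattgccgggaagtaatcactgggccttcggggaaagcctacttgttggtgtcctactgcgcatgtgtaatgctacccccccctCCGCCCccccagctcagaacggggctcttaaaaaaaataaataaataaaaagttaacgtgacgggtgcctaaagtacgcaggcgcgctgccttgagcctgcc
Inpp5d (chr1:87620062-87620311): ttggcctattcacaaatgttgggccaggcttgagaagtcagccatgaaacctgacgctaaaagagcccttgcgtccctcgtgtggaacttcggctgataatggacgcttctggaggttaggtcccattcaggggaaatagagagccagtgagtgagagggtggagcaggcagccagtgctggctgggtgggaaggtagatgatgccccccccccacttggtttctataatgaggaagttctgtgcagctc
Rictor (chr15:6708131-6708380): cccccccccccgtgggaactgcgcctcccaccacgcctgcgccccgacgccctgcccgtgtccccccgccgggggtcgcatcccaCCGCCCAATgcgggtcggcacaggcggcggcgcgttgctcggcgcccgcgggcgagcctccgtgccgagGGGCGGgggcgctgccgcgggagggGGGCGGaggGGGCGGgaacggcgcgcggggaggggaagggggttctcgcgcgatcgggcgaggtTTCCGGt
The motifs were searched on both strands: the GC box GGGCGG, the CCAAT box CCAAT, the ETS core CCGGAA, the FOXO site GTAAACA, the TATA box TATAAA and the E-box CACGTG. Of all 32851 windows of this length in the table, 32.7% held a GC box, 33.8% a CCAAT box, 12.0% an ETS core, 3.17% a FOXO site, 12.4% a TATA box and 6.02% an E-box. The Akt2 window held 1 GC box, beginning 102 bases before the start, and the Inpp5d window held none of the 6 motifs. The Rictor window held 4 GC boxes, 1 CCAAT box and 1 ETS core, and the GC box that begins 165 bases before the start overlaps the CCAAT box that begins at 161. A match is a description of the letters and not evidence of binding. Rictor also differed from the other two in base composition, with 40 CpG dinucleotides and 81.2% GC, against 10 and 48.8% for Akt2 and 5 and 54.4% for Inpp5d. The median of all windows was 6 CpG and 52.4% GC. Akt2 has 4 start sites in the table and the one at the 5′ end of the gene was used, without knowledge of which start these cells use.

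All 9 genes had a window in the table. Pik3r1, with 30 CpG, was the next richest after Rictor, followed by Mtor with 19. The other windows held 9 CpG for Rptor, 7 for Akt1, 6 for Pik3cd and 5 for Pik3ip1. Mtor held 4 CCAAT boxes, and Akt1 held the 1 FOXO site found among the 9 windows. The Pik3cd window used lies 3863 bases from the 5′ end of the annotated gene, and that of Pik3ip1 330 bases.

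Within the WT group, the same samples held the extremes of several of the 9 genes. WT 1 held the lowest level of Pik3cd, Pik3r1 and Pik3ip1 and the highest of Mtor and Rptor. WT 4 held the highest level of Pik3r1, Pik3ip1 and Rictor and the lowest of Mtor. In WT, Akt1 and Akt2 had coefficients of variation of 1.04% and 1.24%, against a median of 7.0% over tested genes with a mean of 1 CPM or more. That median is not matched for level. Akt1 and Akt2 averaged 275.7 and 91.0 CPM in WT, and genes with fewer reads carry more counting error. How much of the difference comes from counting was not tested. The genes whose log2 CPM followed a member most closely over the 9 samples, among 13200 genes with a mean of 1 CPM or more, are given as a description. For Akt2 they were Baiap2 (Pearson r = 0.989), Mrpl18 (0.981) and Enpp1 (0.980), for Inpp5d Glipr2 (0.986), Tent5c (0.979) and Lpxn (0.978), and for Rictor Zfp760 (0.983), Prrc1 (0.956) and Scai (0.947). The 9 samples hold the genotype difference, which every pair of genes changed by genotype shares.

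Beside the 9, the wider pathway was described from 7 lists holding 113 genes, of which 111 were tested. Of these, 8 rose, 15 fell and 88 did not pass, so that 20.7% were called, beside 15.8% of all genes tested, and the median log2 fold change was -0.02. By list, the share called was 8.33% for PI3K subunits and inputs, 27.3% for phosphatases, 38.5% for the Akt arm and 14.3% for the mTOR complexes. It was 13.8% for amino acid sensing, 11.8% for mTOR complex 1 substrates with factors further downstream, and 40% for FOXO targets, beside the same 15.8%. Over all genes, 7.0% rose and 8.82% fell. Whether any list differs from the rest of the genes was not tested. The number of the 111 that rose was 13 without WT 1 and 5 without WT 4.

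Of 12 tested subunits and inputs of PI3K, Pik3cg fell and the other 11 did not pass. Pik3cg encodes p110 gamma, the catalytic subunit activated by G protein-coupled receptors such as chemokine receptors. It was at 106.2, 119.6, 116.0, 104.3 and 126.1 CPM in WT and 73.6, 71.4, 84.0 and 82.8 CPM in cKO, so every cKO sample was below every WT sample. It was 31.9% lower (log2 -0.55, SE 0.07, edgeR adjusted p = 0.000709). Its share of the summed RPKM of the 4 class I catalytic genes was 10.2% in WT (SD 0.934, n = 5) against 7.20% in cKO (SD 0.393, n = 4), while that of Pik3cd was 79.1% and 81.6%. The Pik3cd shares overlapped, from 77.5% to 81.4% in WT and from 81.3% to 81.9% in cKO, and all these shares are given with no test. No gene of this list rose by edgeR, DESeq2 or limma-voom (0 in each, and 1 at unadjusted p under 0.05 in edgeR), and 1 rose without WT 9, with upper-quartile scaling or with a stricter filter.

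Of 11 tested phosphatases that act on phosphoinositides or on Akt, 1 rose, 2 fell and 8 did not pass. Inppl1, which encodes SHIP2, the broadly expressed paralog of SHIP1, rose from 19.9 ± 1.93 CPM in the 5 WT samples to 25.3 ± 1.52 CPM in the 4 cKO samples (SD), the direction opposite to Inpp5d (log2 0.34, SE 0.07, edgeR adjusted p = 0.0111). Of the summed RPKM of Inpp5d and Inppl1, Inpp5d took 85.4% in WT (SD 1.13, n = 5) against 79.2% in cKO (SD 1.09, n = 4), from 84.0% to 87.1% and from 77.9% to 80.2%. Inpp4a, which acts on the product of SHIP1, fell from 40.2 to 28.5 CPM (log2 -0.50, adjusted p = 0.0105), and Inpp5b, another inositol lipid phosphatase, from 120.8 to 104.3 CPM (log2 -0.21, adjusted p = 0.00243). The number that rose was 2 without cKO 2.

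**Figure D4:**
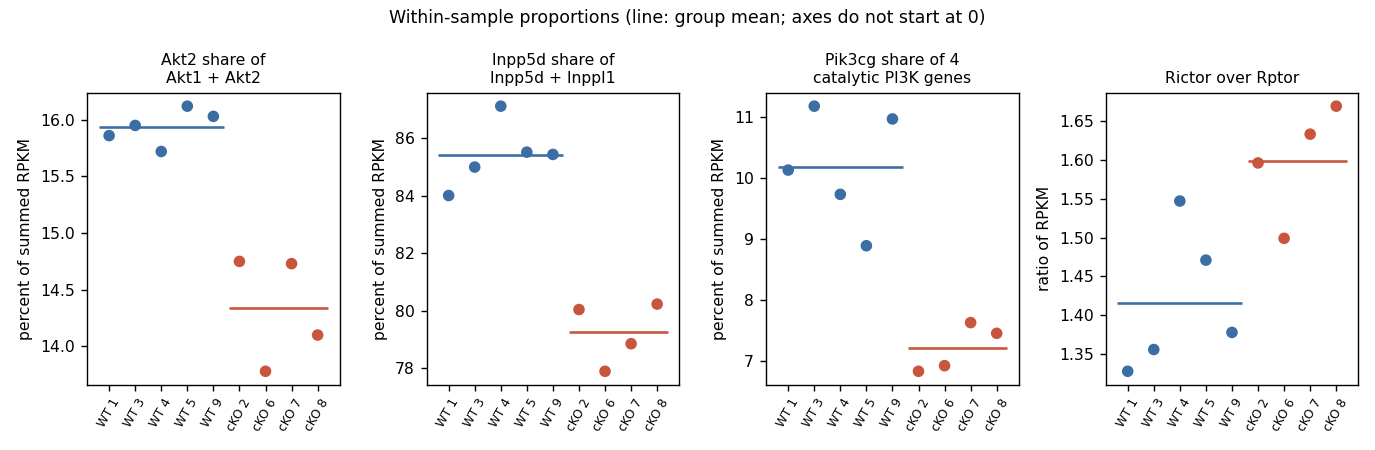
Share of Akt2 in the summed RPKM of Akt1 and Akt2, of Inpp5d in that of Inpp5d and Inppl1, and of Pik3cg in that of the class I catalytic genes, each in percent, and the ratio of Rictor to Rptor, by sample (WT blue, cKO red, lines are group means, y axes do not start at 0). The first 3 do not overlap between genotypes, and the ratio does, at 1.33 to 1.55 in WT and 1.5 to 1.67 in cKO.

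Of 13 tested genes of the Akt arm, 1 rose, 4 fell and 8 did not pass. Foxo1, a transcription factor that Akt keeps out of the nucleus, was 14.9% lower at 238.2 CPM against 279.7 CPM (log2 -0.23, edgeR adjusted p = 0.00623). Trib2, a pseudokinase gene, fell from 202.5 to 143.2 CPM (log2 -0.50, adjusted p = 0.00681). Phlda3, which encodes a competitor of Akt for membrane lipids and is also a target of p53, rose from 45.7 to 75.9 CPM (adjusted p = 0.00192). The other 2 that fell were Sgk3, a kinase related to Akt, at -0.74 (adjusted p = 0.0108), and Foxo4 at -0.29 (adjusted p = 0.0162), both named to complete the count. The number that rose was 2 without WT 1, with upper-quartile scaling or with a stricter filter.

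Of 14 tested genes of the mTOR complexes and the TSC-Rheb switch that controls complex 1, 2 rose and 12 did not pass. Rhebl1, a relative of the mTOR activator Rheb, rose from 8.04 ± 0.925 CPM in the 5 WT samples to 10.3 ± 0.163 CPM in the 4 cKO samples (SD; log2 0.35, edgeR adjusted p = 0.0214). Prr5, which encodes a subunit of mTOR complex 2, rose from 1.75 to 2.83 CPM (log2 0.69, adjusted p = 0.0236) and was low in both groups. None fell by edgeR, DESeq2 or limma-voom (0 in each, and 1 at unadjusted p under 0.05 in edgeR). The number that rose was 0 without WT 4 or cKO 6 and 1 without cKO 2 or cKO 7, and the call of Prr5 was lost in all 4 of these cases.

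Of 29 tested genes that report amino acids to mTOR complex 1 at the lysosome, 2 rose, 2 fell and 25 did not pass. Sesn2, a leucine sensor that is also induced by stress and p53, rose from 49.2 to 74.4 CPM (log2 0.60, edgeR adjusted p = 0.0142), and Mios, a subunit of GATOR2, from 46.1 to 51.6 CPM (log2 0.16, adjusted p = 0.0222). Castor1, an arginine sensor, fell from 14.2 to 9.39 CPM (log2 -0.60, adjusted p = 0.0191), and the other gene that fell was Lamtor4 at -0.28 (adjusted p = 0.0372), named to complete the count. Leaving out WT 3, 4, 5 or 9 or cKO 6 or 8 left 1 gene that fell, and leaving out WT 4, WT 9 or cKO 6 left 1 that rose.

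Of 17 tested genes listed as mTOR complex 1 substrates, which include factors further downstream, 2 fell and 15 did not pass. Tfeb, a transcription factor of lysosome and autophagy genes, was 31.7% lower at 15.4 CPM against 22.6 CPM (log2 -0.55, edgeR adjusted p = 0.0134), and Atg13, a subunit of the complex that starts autophagy, was 19.5% lower at 55.3 against 68.7 CPM (log2 -0.31, adjusted p = 0.00317). None rose by edgeR, DESeq2 or limma-voom (0 in each, and 5 at unadjusted p under 0.05 in edgeR), while 3 rose without WT 1 and 2 without cKO 2. Rps6, the gene of a ribosomal protein with many processed copies in the genome, was at only 3.19 and 3.70 CPM, and the authors' counting could have set aside reads shared with those copies, so its value is uncertain.

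Of 15 tested genes that FOXO factors are known to control in T cells, 2 rose, 4 fell and 9 did not pass, so that the list moved in both directions, with a median log2 fold change of 0.05. Gabarapl1, an autophagy gene, rose from 22.8 to 30.3 CPM (log2 0.41, edgeR adjusted p = 0.00452), and Btg1, an antiproliferative gene, from 185.1 to 219.6 CPM (log2 0.25, adjusted p = 0.0146). Il7r, the receptor chain for IL-7, fell from 55.1 to 36.4 CPM (adjusted p = 0.0160), and cKO 2 at 47.0 CPM stood above WT 1 at 46.8 CPM. The other 3 that fell were Klf2 at -0.78 (adjusted p = 0.0371), S1pr1 at -0.83 (0.0295) and Bcl2l11, a pro-apoptotic gene, at -0.20 (0.0243), named to complete the count. The genotypes also overlapped for Klf2 and S1pr1, and did not for Bcl2l11. Leaving out cKO 8 left 0 genes that fell, and 1 fell without WT 4, WT 9 or cKO 6, and 2 without WT 5 or cKO 2 or with robust quasi-likelihood.

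**Figure D5:**
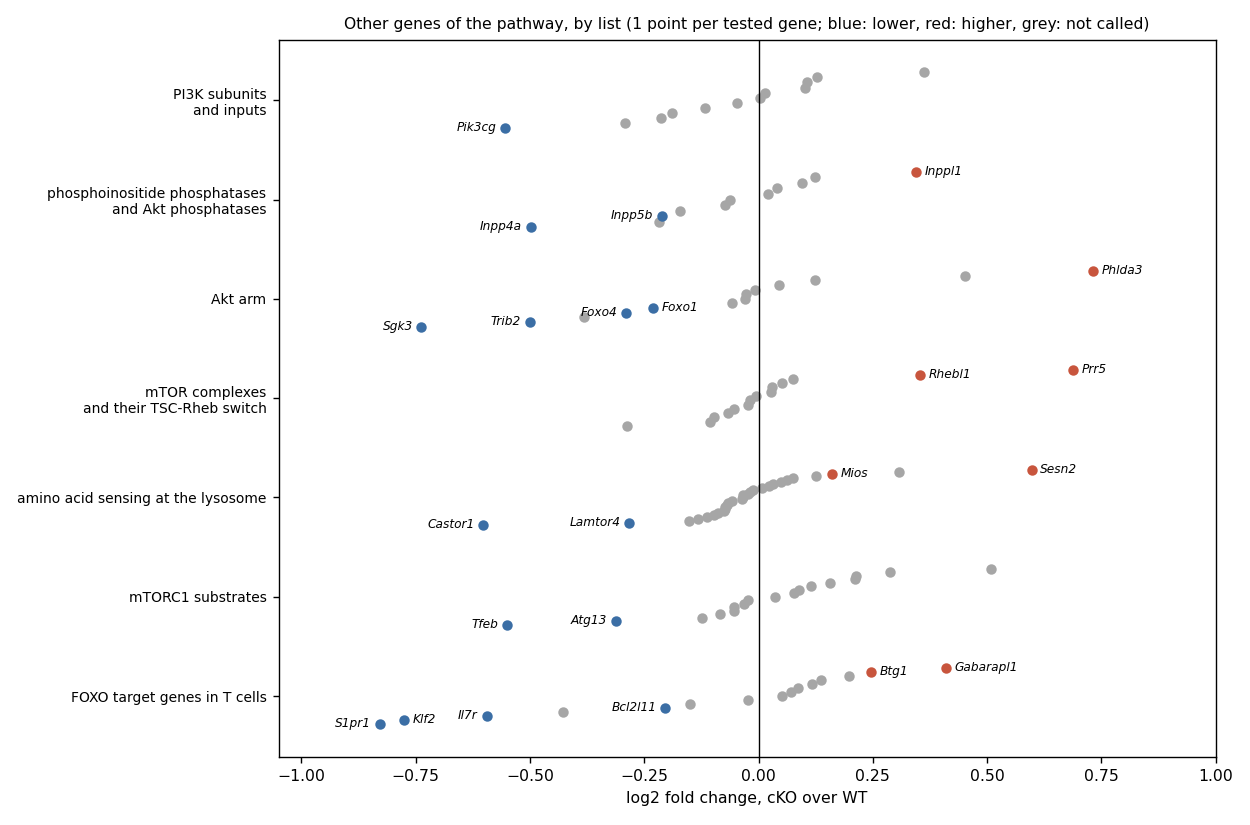
Log2 fold change of cKO over WT (x axis) of each tested gene in the 7 lists (y axis), 1 point per gene, with genes that passed adjusted p 0.05 named and coloured blue where lower and red where higher. Of the tested genes, 8 rose and 15 fell. The share called runs from 8.33% of the PI3K subunits and inputs to 40% of the FOXO targets, beside 15.8% of all genes tested. Whether the lists differ from each other or from all genes was not tested.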

How the data were processed

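RNA from 9 samples was made by the authors into stranded KAPA libraries after mRNA enrichment, per the labels' protocols. The authors deposited 1 table of raw, unnormalized read counts for each gene, with a column for each sample and 0 columns of no sample. Per the submitters' processing notes, bcl2fastq 2.17 and mm10 were used, while the aligner, counter, strand setting and annotation were not given in the sources used here. Symbols matched 37607 of 39017 IDs, 1410 had none, and positions and exonic lengths came from GENCODE M21. No sample was counted as a repeat of another, since their counts differed beyond sampling noise (chi-square per gene 3.52 to 22.1 within groups).

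The test was edgeR 4.0.16 (R 4.3.3) quasi-likelihood on all 9 samples, two-sided, with TMM, filterByExpr, no covariate and adjusted p below 0.05 over 14693 genes. The biological variation was estimated at 8.04%. Fold changes give cKO over WT, and a prior count of 2 was used for log2 CPM. The alternatives used DESeq2 1.42.0, limma 3.58.1 and the settings named below. On simulated data with 14693 genes, edgeR recovered 16% of the 50 genes changed by 1.2-fold, 68% of those changed by 1.5-fold and 94% of those changed by 2-fold. It made 5 false calls. In that setting, changes of the size seen in these 9 genes can be missed. The simulation changed 200 genes, while 2324 were called in the data. Its spread followed the trend over all genes and not each gene's own, so these rates may not hold for the data.

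The 9 genes, the lists and the tests were chosen with earlier results of these data known. Named were the 9 genes, Kdm6a, up to 3 called genes per list in order of adjusted p, and, for the 3 called members, the 3 genes of most similar pattern. Outside that rule, and after their values were seen, Sgk3, Foxo4, Lamtor4, Klf2, S1pr1 and Bcl2l11 were named to complete counts, and Rps6, Cd79b, Cd8b1, Gm12592 and Rptoros beside a result. Of 11 marker lists, the sums (CPM, WT then cKO) not given above were 3.17 to 4.51 and 3.75 to 5.84 for plasma cells, 2.75 to 3.65 and 2.64 to 5.78 for gamma-delta T cells, 6.57 to 18.3 and 10.4 to 39.8 for natural killer cells, 2.21 to 3.61 and 2.74 to 3.75 for dendritic cells, 0.472 to 0.945 and 0.403 to 0.768 for erythroid cells, and 96.7 to 119.1 and 84.0 to 105.4 for stroma and vessels. Some genes of the lists are not reported here by name.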

Additional observations from a re-analysis of the deposited data

Results flagged for a closer look

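In 58 groups of 4 or 5 sample values, 3 had a sample far from the others, where chance gives about 1 in 20. Inpp5d in WT 9, at 131.5 CPM, lay below the other 4 WT samples, and without that sample the log2 fold change was -0.29 (edgeR adjusted p = 0.00858). Prr5 in cKO 8, at 1.88 CPM, lay below the other 3 cKO samples and inside the WT range. Gabarapl1 in WT 1, at 27.1 CPM, lay above the other 4 WT samples and below every cKO sample.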

How the results depend on the processing

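No paired analysis was possible because the groups share no replicate numbers. Of the 9 genes, 2 fell in all 16 other settings, and the number that rose was 0 with no count filter and from 0 to 1 with 1 sample left out. The log2 fold change of Pik3cd was 0.00061 with upper-quartile scaling and ran from -0.047 to 0.0079 with 1 sample left out, and that of Akt1 was 0.0029 with upper-quartile scaling. These 2 genes were not called in any setting, and the cause of the sign changes was not tested. Of the other pathway genes, from 5 to 13 rose with 1 sample left out. Over all genes tested, from 531 to 1363 rose and from 732 to 1570 fell with 1 sample left out, against 1028 and 1296 in the fit of all 9. Upper-quartile scaling moved the share of called genes that were higher from 44.2% to 54.2% and the median log2 fold change of all genes from 0.00125 to 0.0195. Of the 23 called pathway genes, 13 passed in all 16 other settings and 10 did not. The call was lost in 9 settings for Klf2 (limma-voom and robust quasi-likelihood among them), 6 for S1pr1 (robust quasi-likelihood among them), 6 for Lamtor4, 5 for Bcl2l11, 4 for Prr5, 3 for Mios, 2 each for Rhebl1 and Il7r, and 1 each for Castor1 and Foxo4. The other losses came with 1 sample left out. With 9 samples, intervals of the members that did not pass still allow changes of up to 0.44 (Pik3ip1, lower) on the log2 scale.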
